A study of Macaca mulatta with 12 samples.

Results

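Cytosolic ribosomal proteins were followed layer by layer in the lateral geniculate nucleus of rhesus macaques with 1 deprived eye. This nucleus is the part of the thalamus that passes retinal signals to the visual cortex. The members were all probe sets with a single gene symbol of the form RPL or RPS and a number, with an optional A, X or L, and the stalk proteins RPLP1 and RPLP2. This gave 94 probe sets for 56 genes, 35 of the large and 21 of the small subunit, out of 19065 probe sets with a single symbol for 11963 genes. A filter on dim signal left 77 of the 94 probe sets and 52 of the 56 genes for testing. RPL3L, RPL10L, RPL39L and RPLP2 had no probe set above it. Another 14 symbols that begin alike were not members, among them 9 S6 kinases, RPL36AL and 3 symbols that end in P and digits, as those of pseudogenes do. RPLP0, RPSA, RPS27A, RPL22L1 and RPL7L1 were not analysed here.

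Each of the 6 layers was sampled once on the ipsilateral and once on the contralateral side, 12 arrays of total RNA in all. According to the labels, ipsilateral layers 2, 3 and 5 and contralateral layers 1, 4 and 6 were deprived, and ipsilateral layers 1, 4 and 6 and contralateral layers 2, 3 and 5 were non-deprived. Both groups of 6 arrays came from monocularly deprived monkeys, so the non-deprived layers are not those of an untreated animal. By anatomy, layers 1 and 2 are magnocellular (4 arrays) and layers 3 to 6 parvocellular (8 arrays). The labels give neither the age of the animals, nor how and how long the eye was deprived, nor how many animals there were. The p-values therefore measure the spread between these samples, which may be technical in part, and where samples came from 1 animal they are too small for a statement on animals in general.

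A ribosome consists of ribosomal RNA and one copy or a few copies of each of these proteins, which sit in a small subunit that reads the messenger RNA and a large subunit that joins amino acids. The messenger RNAs of ribosomal proteins carry a 5′ terminal oligopyrimidine tract, through which mTOR signalling sets how much they are translated. In neurons, ribosome content is known to go with cell size, and magnocellular relay cells are larger than parvocellular ones.

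The ribosomal protein probe sets were among the brightest on the arrays. The median member stood at the 94.5th percentile of mean intensity among the 11105 probe sets tested, and 53 of 77 were in the brightest 10%. Intensities are the deposited scaled values, and no value of a tested member lay at the floor of 110.8. The array was designed for human transcripts, all 56 genes are in the macaque gene table, and 29 of the 77 were of the kind whose probes can match several sequences. Processed pseudogenes of ribosomal proteins are common in primates, so such a probe set may read more than its gene. Human probes bind macaque RNA to different degrees, so the brightness ranks above do not measure amounts of RNA. The same limit holds for intensities summed over genes below. Levels of single probe sets were not otherwise set against those of another gene.

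Across the 12 arrays, the median member varied less than the median probe set. The range from the lowest to the highest array had a median of 1.02 (log2) over members and 1.36 over all probe sets tested. The widest ranges among members were 2.18 for the dimmest tested probe set of RPL22, 2.13 for RPS27 and 2.10 for RPS25. Most members moved together from array to array: 67 of 77 correlated above 0 with the members' median, which includes them, with a median r of 0.59 over 12 arrays that share 1 scaling.

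Each array was summarised by the median over the 77 members of the deviation from the member's own mean (log2). It was -0.07 in non-deprived and -0.15 in deprived layer 1, and -0.03 in non-deprived and -0.19 in deprived layer 2. In layer 3 it was 0.12 non-deprived and 0.15 deprived, and in layer 5 it was 0.20 and 0.05. All 4 magnocellular arrays lay below 0 and all 4 arrays of layers 3 and 5 above it. Layer 4 resembled the magnocellular layers, with -0.19 non-deprived and -0.11 deprived. In layer 6 the 2 sides stood far apart, at -0.10 in the non-deprived ipsilateral and 0.27 in the deprived contralateral sample. The means of both arrays ordered the layers 3 (0.13), 5 (0.13), 6 (0.08), 1 (-0.11), 2 (-0.11) and 4 (-0.15), and with 2 arrays each, neighbours in that order were not separated. Members made up between 3.05% and 3.92% of an array's summed intensity, 3.19% ± 0.14 in magnocellular (SD, n = 4) and 3.57% ± 0.35 in parvocellular samples (SD, n = 8).

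**Figure D1:**
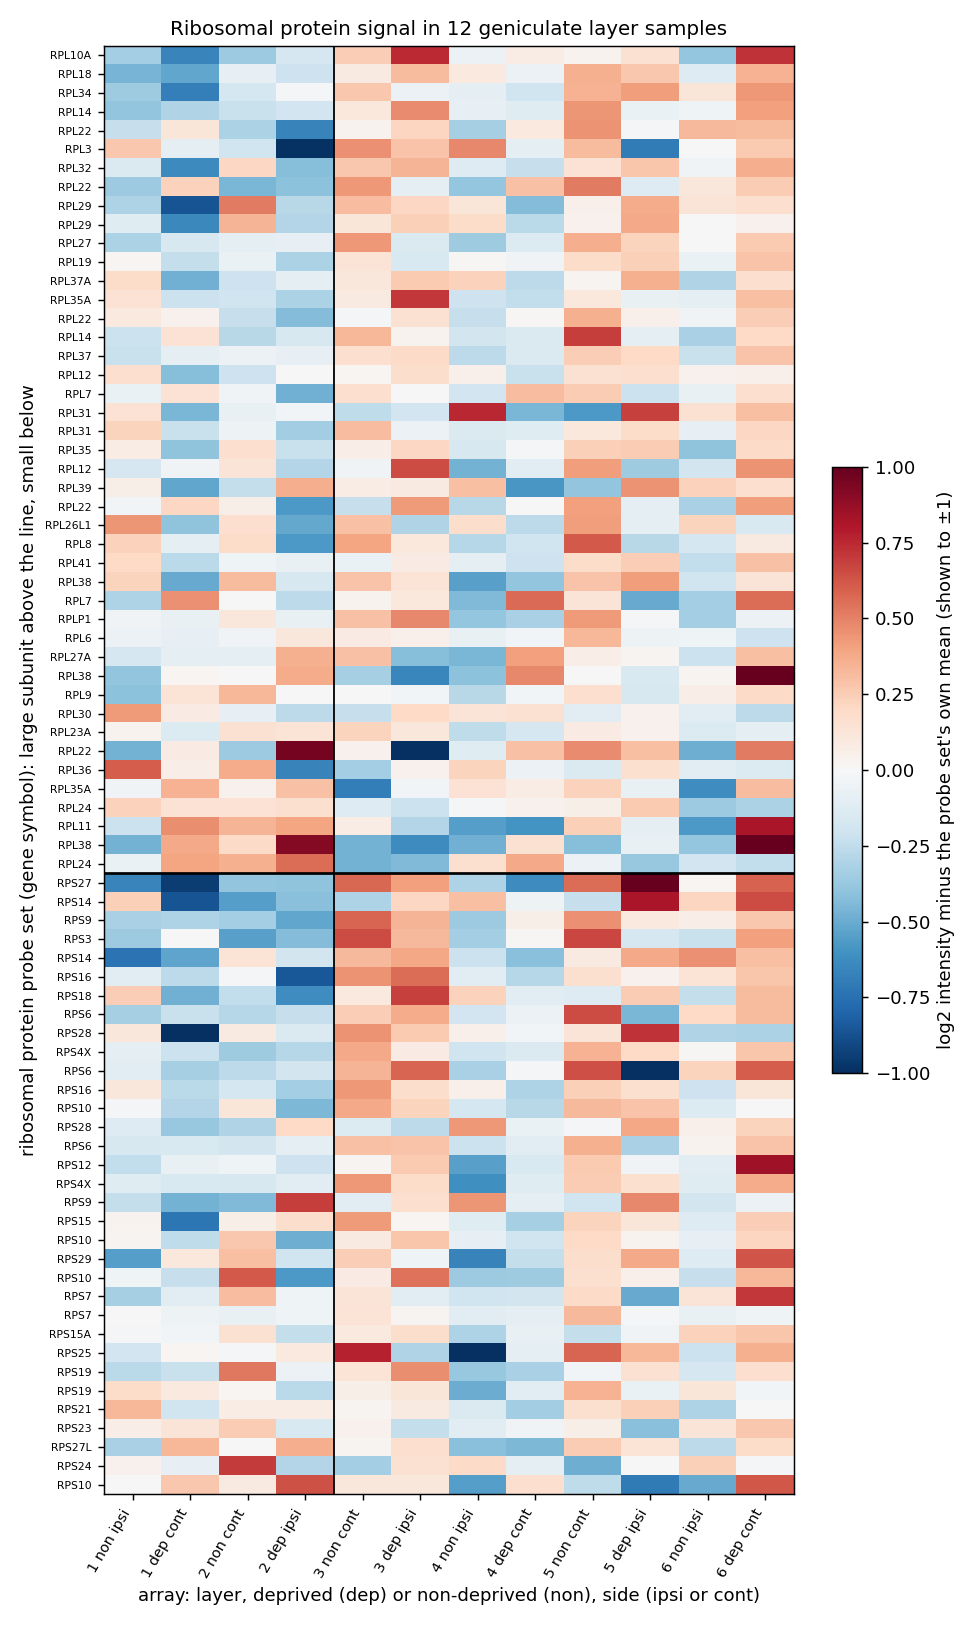
Deviation of log2 intensity from each probe set's own mean for 77 ribosomal protein probe sets (rows, gene symbols) in 12 arrays (columns, by layer, then non-deprived and deprived), with blue for lower, red for higher, and colours cut at 1 in each direction. Large subunit members are above the horizontal line and small subunit members below it, each sorted by the magnocellular minus parvocellular difference, and the 4 magnocellular arrays are left of the vertical line.

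The 3′/5′ intensity ratio of the ACTB control probe sets, which rises as RNA is shortened from its 5′ end, moved with these array medians. It was 17.0 to 24.9 on the 5 arrays whose member median was above 0, which were both samples of layers 3 and 5 and deprived layer 6. On the 7 arrays below 0 it was 25.4 to 62.9, with no overlap. By class it was 46.4 ± 15.1 in magnocellular (SD, n = 4) and 25.7 ± 8.8 in parvocellular samples (SD, n = 8). The GAPDH ratio did not split the arrays this way: it was 10.996 in deprived layer 5, which was above 0, and 9.38 in deprived layer 2, which was below, against 2.21 to 5.65 elsewhere. The part of RNA quality in the members' levels was not tested.

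**Figure D2:**
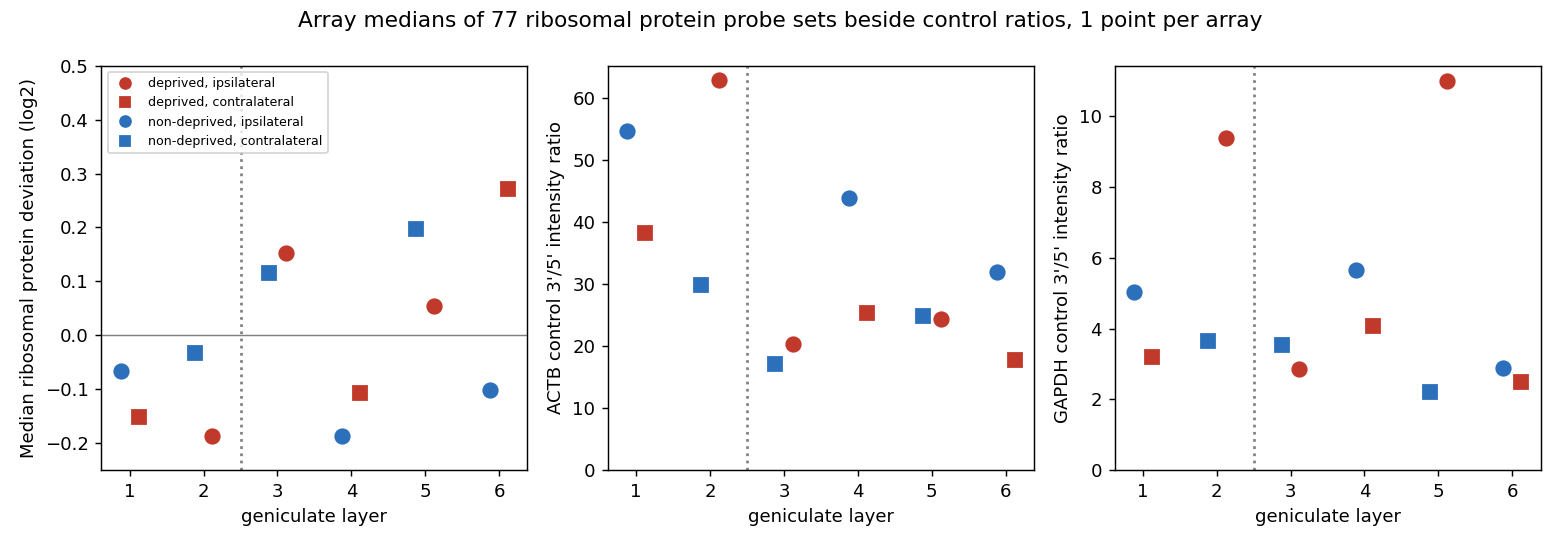
Left, the median deviation of the 77 ribosomal protein probe sets in each array (log2), by layer; middle and right, the 3′/5′ intensity ratios of the ACTB and GAPDH controls on the same arrays. Colour gives deprivation, symbol gives the side, and the dotted line separates magnocellular layers 1 and 2 from parvocellular layers 3 to 6. The 5 arrays above 0 on the left have the 5 lowest ACTB ratios.

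The first comparison was between deprived and non-deprived layers. None of the 77 members passed the threshold of adjusted p under 0.05 (limma, Benjamini-Hochberg over all 11105 probe sets), where 0.063% of all probe sets passed. At an unadjusted p under 0.05, 1 member was higher in deprived layers, against 5.93% of all probe sets, and 2 were lower, against 6.07%. Together these are 3.90% of the members, below the 12% of all probe sets in either direction. Differences were small: 75 of 77 lay within 0.5 of 0 on the log2 scale, with a median standard error of 0.16. Their median was -0.01 (41 lower, 36 higher), beside 0.03 over all probe sets tested. In the large subunit 22 of 44 and in the small subunit 19 of 33 were lower. With quantile normalization the median was 0.08 and 23 were lower, and after median centring it was -0.15 and 64 were lower, so the members have no direction here that holds across scalings.

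RPL26L1, a close paralog of RPL26 in the large subunit, had the smallest p-value of any member in this comparison. Its scaled intensity in non-deprived layers 1 to 6 was 8792, 7249, 7908, 7280, 8613 and 7536. In deprived layers 1 to 6 it was 4889, 4524, 5259, 5403, 6081 and 5812. Every deprived sample was below every non-deprived one, and the deprived sample was lower in 6 of 6 layers. Among the members this was the only probe set whose deprived and non-deprived groups did not overlap, which held for 0.684% of all probe sets. The means were 5328 ± 575 and 7896 ± 670 (SD, n = 6 each), a log2 difference of -0.57 ± 0.14 (95% interval -0.86 to -0.28, adjusted p = 0.135 by limma, not passing). It ranged from -0.71 to -0.47 over 30 alternative settings, with adjusted p from 0.0686 to 0.789. The ipsilateral minus contralateral difference in the deprivation effect was -0.02 ± 0.27. Its 95% interval, -0.60 to 0.57, is too wide to show that the 2 sides were equal.

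RPL3 and RPL8, large subunit proteins at the peptidyl transferase centre, were the next lower members and did not pass. RPL3 measured 46308 to 73922 in non-deprived samples (median 64999). In deprived samples it measured 26747 to 64729 (median 49890). The groups overlapped, deprived layers were lower in 5 of 6 layers, and the fitted difference was -0.44 ± 0.18 (adjusted p = 0.340). The 2 lowest values, 26747 in deprived layer 2 and 32737 in deprived layer 5, came from the arrays with the 2 highest GAPDH ratios, and without these 2 arrays the difference was -0.13 (adjusted p = 0.858). RPL8 had a difference of -0.32 ± 0.15 (adjusted p = 0.416), RPL29 -0.27 ± 0.19 and RPS23, a small subunit protein at the decoding centre, -0.15 ± 0.11.

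RPL38, a large subunit protein that mouse embryos need to translate Hox messenger RNAs, was the member furthest above 0, and its 3 probe sets disagreed. The dimmest of them measured 1860, 2942, 1854, 1850, 1914 and 1969 in non-deprived layers 1 to 6. In deprived layers 1 to 6 it measured 3343, 4856, 1665, 2859, 2452 and 6387. Deprived samples were higher in 5 of 6 layers, with layer 3 the exception. The difference was 0.68 ± 0.24 (adjusted p = 0.277, not passing). The probe set of middle brightness gave 0.37 ± 0.21 and the brightest -0.13 ± 0.19. The other members with the smallest p-values above 0 were one probe set of RPL7 (0.31 ± 0.14, its other -0.02 ± 0.11), one of RPS10 (0.37 ± 0.21) and RPL10A (0.29 ± 0.18). The other probe sets of RPS10 had -0.17, -0.07 and -0.14.

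The layers did not share a direction in the deprivation comparison. The median deprived minus non-deprived difference over members was -0.08 in layer 1, -0.11 in layer 2, 0.02 in layer 3, 0.04 in layer 4, -0.11 in layer 5 and 0.31 in layer 6. Over all probe sets tested the same medians were -0.17, 0.08, 0.09, -0.10, 0.17 and 0.04. Layer 6 stood apart among these, with 66 of 77 members higher in the deprived sample. In the other layers between 30 and 44 members were higher. The ACTB ratio of the deprived samples of layers 1 to 6 was 38.2, 62.9, 20.3, 25.4, 24.4 and 17.7. For the non-deprived samples of layers 1 to 6 it was 54.7, 29.8, 17.0, 43.9, 24.9 and 31.9. The part of RNA quality in these differences was not tested. Without deprived layer 4 the overall median was 0.04 and without non-deprived layer 4 it was -0.04, the extremes when single arrays were left out.

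**Figure D3:**
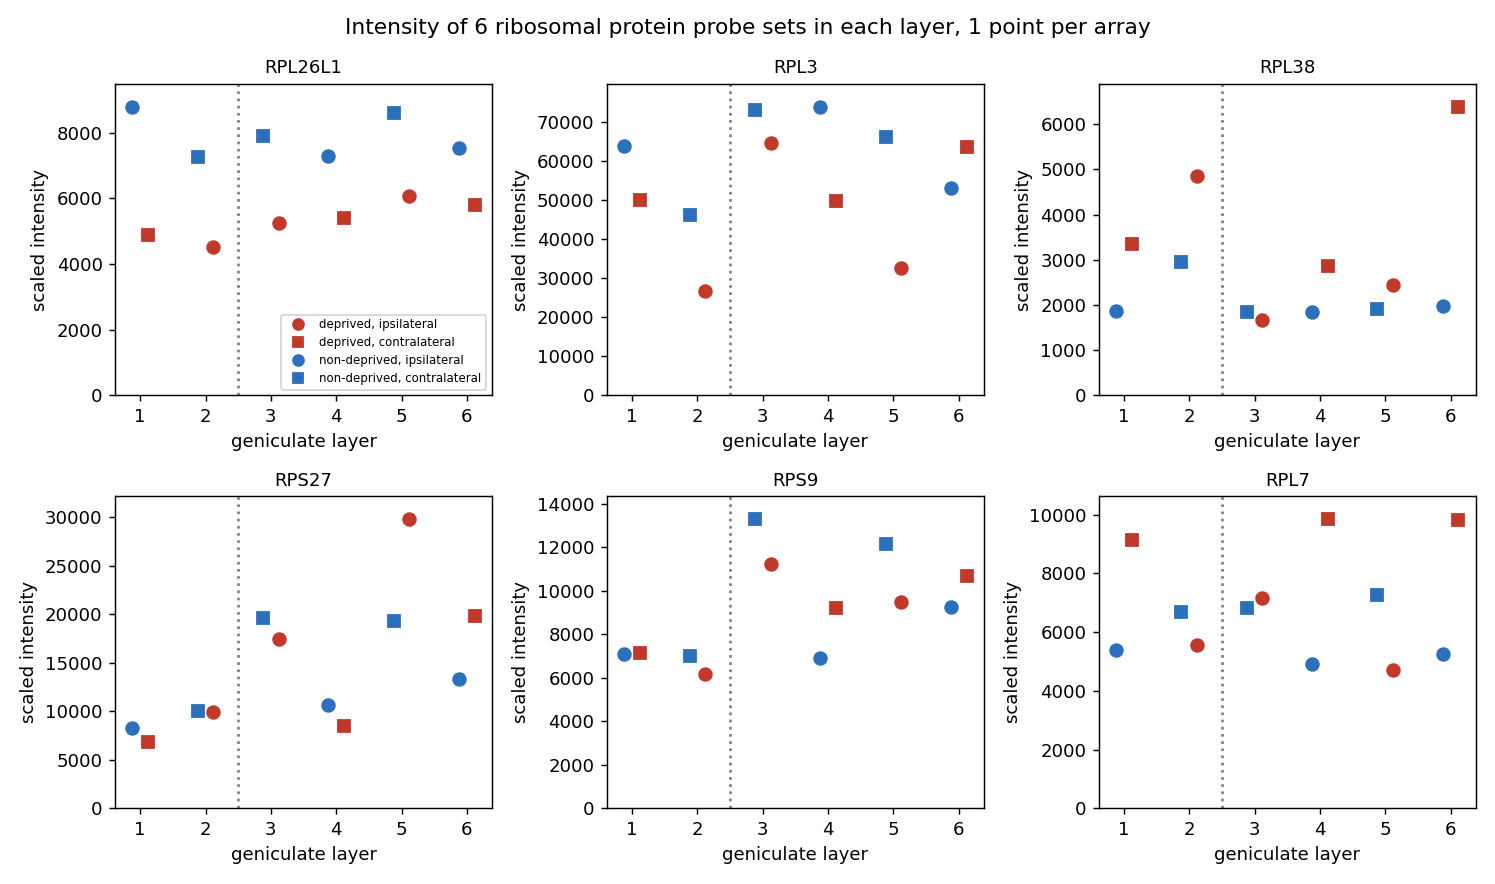
Scaled intensity by layer for RPL26L1, RPL3, RPL38 (dimmest probe set), RPS27, RPS9 (brighter probe set) and RPL7 (dimmer probe set), 1 point per array, with colour for deprivation and symbol for the side. Every deprived sample of RPL26L1 lies between 4524 and 6081, below all non-deprived ones, while RPS27 lies between 6808 and 10014 in the magnocellular layers left of the dotted line.

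The second comparison set magnocellular against parvocellular layers. None of the 77 members passed, where 0.72% of all probe sets did. At an unadjusted p under 0.05, 16 members were lower in magnocellular layers and 1 higher, against 9.35% and 5.24% of all probe sets. In either direction this is 22.1% of the members, beside 14.6% of all probe sets. Of the members 61 of 77 (79.2%) had a negative difference, beside 58.5% of all probe sets tested, and the median was -0.16 against -0.07. Both subunits contributed, with 34 of 44 large subunit members (median -0.14) and 27 of 33 small subunit members (median -0.21) below 0. The median was -0.16 with quantile normalization and -0.08 after median centring (61 and 49 of 77 lower). Within each side it was -0.12 ipsilaterally (52 of 77 lower) and -0.23 contralaterally (61 of 77 lower), and -0.05 in non-deprived samples alone. With the log2 ACTB ratio as a covariate the median was 0.09 and 33 of 77 were lower. Fewer cells of a kind and less RNA per cell cannot be told apart in such layer samples.

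RPS27, a zinc-finger protein of the small subunit, had the largest negative difference between the classes. In layers 1 and 2 it measured 8299 and 10014 in non-deprived and 6808 and 9958 in deprived samples. In layers 3 to 6 it measured 19601, 10621, 19356 and 13287 in non-deprived and 17500, 8492, 29772 and 19828 in deprived samples. Of the 8 parvocellular samples, deprived layer 4 alone fell within the magnocellular range. The means were 8770 ± 1531 (SD, n = 4) and 17307 ± 6653 (SD, n = 8), a log2 difference of -0.90 ± 0.27 (adjusted p = 0.142, not passing). Without that deprived layer 4 sample the difference was -1.06, adjusted p = 0.0367, the one setting in which a member passed in this comparison. In that setting 74 of all 11105 probe sets passed. With the ACTB ratio as a covariate the difference of RPS27 was -0.07.

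RPS9 and RPS3, which sit at the channel by which messenger RNA enters the small subunit, showed the same direction. The brighter probe set of RPS9 measured 7086 and 6997 in non-deprived and 7147 and 6172 in deprived magnocellular layers. Its parvocellular values ran from 6891 in non-deprived layer 4 to 13268 in non-deprived layer 3, and no other parvocellular sample was below 9216. The difference was -0.56 ± 0.16 (adjusted p = 0.138), the smallest adjusted p of the members here. RPS3 had a difference of -0.50 ± 0.17 (adjusted p = 0.197). In the large subunit, RPL18 had -0.48 ± 0.15 (adjusted p = 0.152) and RPL10A -0.58 ± 0.19 (adjusted p = 0.191).

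Among members, only the dimmer tested probe set of RPL14 had classes that did not overlap, where 1.5% of all probe sets did. RPL14, a large subunit protein, was named for this after its values were seen. It measured 9047 to 10416 in the 4 magnocellular samples and 10986 to 16502 in the 8 parvocellular ones. The difference was -0.42 ± 0.16 (adjusted p = 0.246), and the other probe set of RPL14 had -0.19 ± 0.16. RPS6, the small subunit protein that S6 kinases phosphorylate, was below 0 with all 3 tested probe sets (-0.40 ± 0.17, -0.34 ± 0.25 and -0.22 ± 0.14), and none of these passed.

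RPL24, a large subunit protein that bridges to the small subunit, went the other way with both probe sets. The dimmer of them measured 10250 to 15795 in magnocellular and 7720 to 13954 in parvocellular samples, which overlapped. Its difference was 0.47 ± 0.18 (adjusted p = 0.254) and that of the other 0.26 ± 0.13 (adjusted p = 0.384). With the ACTB ratio as a covariate the first was -0.15. The other members above 0 with the smallest p-values were RPL11 (0.37 ± 0.22), which can bind the p53 regulator MDM2, one probe set of RPS10 (0.38 ± 0.23) and the dimmest RPL38 probe set (0.38 ± 0.25). The other probe sets of RPS10 had -0.24, -0.09 and -0.17, and those of RPL38 -0.001 and -0.05.

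Markers of other cells differed between the same samples. Oligodendrocyte markers had a median difference of -0.50 between magnocellular and parvocellular layers (11 of 13 probe sets lower), and MBP (-0.64 ± 0.13, adjusted p = 0.0334) and MAG (-1.26 ± 0.23, adjusted p = 0.0180), both myelin proteins, fell past the threshold. Their summed intensity over 8 genes was 62122 to 86966 in magnocellular and 85541 to 149042 in parvocellular samples. Neuron markers had a median of 0.10, with 14 of 22 probe sets higher and 8 lower. Of these, NEFH and NEFM, subunits of the neurofilaments of large axons, rose past the threshold. The summed intensity of neuron markers over 11 genes was 571316 to 650714 in magnocellular and 437897 to 569307 in parvocellular samples. Astrocyte markers overlapped between the classes, with 82014 to 129032 and 57081 to 127340 over 8 of 9 genes above the filter. Microglia had 4 of 8 measured genes above the filter, and C1QA, C1QB, AIF1 and PTPRC were below it. Microglia markers had a class median of -0.23 (3 of 4 probe sets lower) and astrocyte markers 0.01 (5 of 10). Endothelial and mural markers had -0.17 (7 of 11) and blood markers -0.34 (4 of 4), and none of these passed. No marker had an intensity of 0. In deprived layers the oligodendrocyte and astrocyte markers had medians of 0.37 and 0.36, positive for 13 of 13 and 10 of 10 probe sets. Microglia markers had 0.27 (4 of 4 positive), endothelial and mural markers 0.39 (9 of 11) and blood markers 0.39 (4 of 4). Neuron markers had -0.08, with 15 of 22 lower, and no marker passed for deprivation. The part of cell makeup in the members' levels was not tested.

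The third comparison, between the sides, holds a difference in dissection or array scale as well as hemisphere, which cannot be told apart. None of the 77 members passed, where 0.108% of all probe sets did. At an unadjusted p under 0.05, 9 members were lower and 3 higher on the ipsilateral side, against 7.13% and 13% of all probe sets. In either direction this is 15.6% of members, below the 20.1% of all probe sets. Of the members 55 of 77 were lower, with a median of -0.10, while over all probe sets 42.1% were lower and the median was 0.07. The members' sign was not stable to scaling: the median was 0.03 with quantile normalization (33 of 77 lower) and -0.42 after median centring (73 of 77 lower), where that of all probe sets was -0.01 and -0.25. It was 0.04 with the ACTB ratio as a covariate. Between the same sides, oligodendrocyte markers had a median of 0.25 (12 of 13 probe sets higher ipsilaterally), astrocyte markers 0.13 (5 of 10), microglia markers 0.33 (4 of 4), endothelial and mural markers 0.11 (8 of 11), blood markers 0.41 (4 of 4) and neuron markers -0.07 (6 of 22), and none passed. Their part in the members' values was not tested.

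RPL7, a large subunit protein, had the smallest p-value of any member on the sides, and both of its probe sets were lower ipsilaterally. The dimmer one measured 5379, 5543, 7144, 4912, 4692 and 5266 in ipsilateral layers 1 to 6. Contralateral layers 1 to 6 measured 9139, 6679, 6807, 9835, 7262 and 9806. The ipsilateral sample was lower in 5 of 6 layers, and ipsilateral layer 3 overlapped the contralateral range. The highest 3 values were those of the contralateral deprived layers 1, 4 and 6. The difference was -0.58 ± 0.14 (adjusted p = 0.1003, not passing). Without non-deprived layer 6 it was -0.60, adjusted p = 0.0314 by limma. In that setting 851 of all 11105 probe sets passed, against 12 with all arrays. The brighter probe set was lower in 6 of 6 layers, at 32094 to 44836 against 43654 to 55467, with a difference of -0.34 ± 0.11 (adjusted p = 0.132). No member had sides that did not overlap, where 1.29% of all probe sets did.

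Other members lower on the ipsilateral side were one probe set of RPL22 (-0.42 ± 0.15), an RNA-binding protein that mouse T cells need to develop, RPS3 (-0.40 ± 0.16) and RPS25 (-0.54 ± 0.24), which viral internal ribosome entry sites depend on. None of these passed. Higher ipsilaterally were RPL39 (0.50 ± 0.17, adjusted p = 0.146) and the dimmer tested probe set of RPL31 (0.51 ± 0.24), both of proteins at the exit tunnel of the large subunit. The brighter probe set of RPL31 had -0.08 ± 0.12. RPL39 measured 2904 to 3808 ipsilaterally and 1868 to 3148 contralaterally, higher in 6 of 6 layers with ranges that overlapped. One probe set each of RPS9 (0.45 ± 0.17), RPL12 (0.21 ± 0.12) and RPS14 (0.45 ± 0.26) followed. The other tested probe sets of these genes had -0.24 ± 0.15, -0.27 ± 0.18 and 0.03 ± 0.19, in the same order.

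Eye of input was examined as the difference in deprivation effect between the sides, since ipsilateral deprived layers belong to the ipsilateral eye and contralateral deprived layers to the contralateral eye. Eye of input and an interaction of deprivation with hemisphere are the same contrast in this design and cannot be told apart. That contrast also sets layers 2, 3 and 5 against layers 1, 4 and 6 on both sides. Differences between these layers cannot be told apart from it either, nor from a deprivation difference within 1 side. Deprived minus non-deprived differences had a member median of 0.13 within the ipsilateral side (54 of 77 higher) and of -0.12 within the contralateral side (53 of 77 lower), beside 0.05 and -0.01 over all probe sets. The difference between the sides was tested for each probe set. None of the 77 members passed and neither did any other probe set (0%). At an unadjusted p under 0.05, 10 members were above 0 and 0 below, 13.0% of members in all, beside 2.97% and 3.6% of all probe sets in these directions and 6.57% in either. Of the members 54 of 77 were positive, with a median of 0.23 beside 0.05, and a median standard error of 0.31. It was 0.30 with quantile normalization. After median centring it was -0.02, with 41 of 77 lower, and that of all probe sets was -0.20. In the same contrast oligodendrocyte markers had a median of 0.41 (9 of 13 probe sets positive), astrocyte markers 0.05 (8 of 10), microglia markers 0.57 (4 of 4), endothelial and mural markers 0.55 (8 of 11), blood markers 0.54 (4 of 4) and neuron markers -0.10 (7 of 22), and none passed. Their part was not tested either. The ACTB ratio on the ipsilateral side was 62.9, 20.3 and 24.4 in deprived layers 2, 3 and 5 and 54.7, 43.9 and 31.9 in non-deprived layers 1, 4 and 6. On the contralateral side it was 38.2, 25.4 and 17.7 in deprived layers 1, 4 and 6 and 29.8, 17.0 and 24.9 in non-deprived layers 2, 3 and 5.

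RPS27 had the largest value of this contrast, 1.29 ± 0.40 (adjusted p = 0.513, not passing). On the ipsilateral side its deprived layers 2, 3 and 5 (9958, 17500 and 29772) reached higher than non-deprived layers 1, 4 and 6 (8299, 10621 and 13287). Contralaterally the deprived layers 1, 4 and 6 (6808, 8492 and 19828) lay lower than non-deprived layers 2, 3 and 5 (10014, 19601 and 19356) except for layer 6. Read by layer, RPS27 in layers 3 and 5 was 17500 to 29772 on both sides, and in layers 1 and 4 it was 6808 to 10621. RPL23A, at the exit tunnel, had 0.50 ± 0.18 (adjusted p = 0.594), and RPLP1, an acidic protein of the stalk that recruits elongation factors, 0.81 ± 0.29 (adjusted p = 0.595). The brightest probe set of RPL38 had 0.85 ± 0.32, while the other 2 had -0.51 ± 0.42 and -0.33 ± 0.49. RPS19, which is mutated in Diamond-Blackfan anaemia, had 0.80 ± 0.31 with one probe set. Below 0 the smallest p-values were those of RPL3 (-0.55 ± 0.34), RPS23 (-0.30 ± 0.21), the RPL38 probe set of middle brightness, RPL7 (-0.33 ± 0.28) and RPL30 (-0.29 ± 0.26), with adjusted p from 0.837 to 0.878.

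The last comparison asked whether the deprivation difference was larger in magnocellular or parvocellular layers. None of the 77 members passed and neither did any other probe set (0%). At an unadjusted p under 0.05, 6 members were below 0 and 0 above, 7.79% of members, against 6.03% and 2.69% of all probe sets in these directions and 8.73% in either. The median was -0.16 beside -0.05 over all probe sets, and 52 of 77 members were below 0. RPS18, of the head of the small subunit, had -0.84 ± 0.30 (adjusted p = 0.436). RPL36 had -0.89 ± 0.34 (adjusted p = 0.506), 2 probe sets of RPS10 had -0.92 ± 0.36 and -0.57 ± 0.26, and RPL32 had -0.69 ± 0.29. The deprived magnocellular samples were only those of layers 1 and 2. Deprived layer 2, with the highest ACTB ratio (62.9), was lowest of the 12 arrays for RPS18 (29511), RPL36 (4331) and both RPS10 probe sets (15259 and 24117). RPL32 was lowest in deprived layer 1 (21940). The part of RNA quality was not tested. Above 0 were 2 probe sets of RPL22 (0.94 ± 0.63 and 0.41 ± 0.31), one of RPL14 (0.36 ± 0.32), RPS27L (0.40 ± 0.37), a paralog of RPS27 that p53 can induce, and one of RPL24 (0.37 ± 0.36). The other tested probe sets of RPL22 had -0.49, -0.04 and -0.23, that of RPL14 -0.01 and that of RPL24 -0.09. Those of RPS10 had -0.39 and 0.06.

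**Figure D4:**
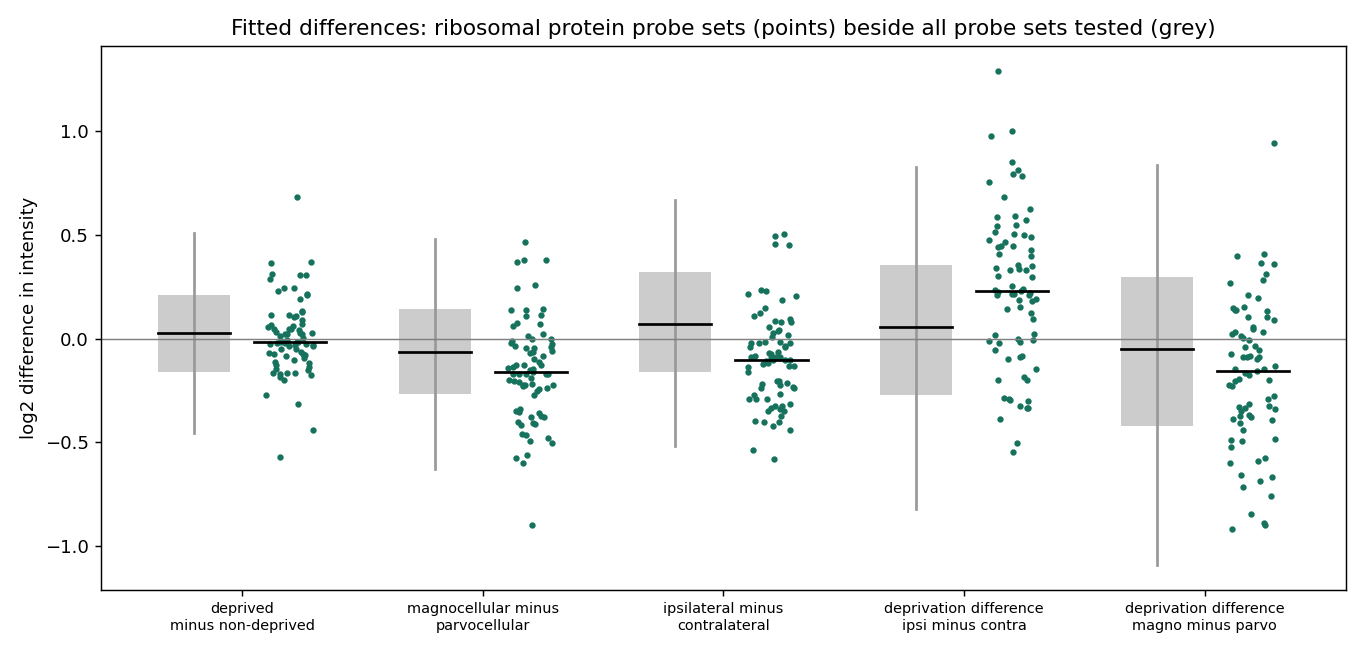
Fitted log2 differences for the 77 ribosomal protein probe sets (points) beside all 11105 probe sets tested (grey box, 25th to 75th percentile; grey line, 5th to 95th percentile) in the 5 comparisons, with black bars at the medians. Member medians are -0.01, -0.16, -0.10, 0.23 and -0.16 from left to right, and no point passed the threshold.

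Probe sets of the same gene gave a check within the members. In 18 genes more than one probe set was tested. All probe sets of a gene had the same sign in 8 of 18 genes for deprivation, 13 for cell class, 13 for side, 8 for eye of input and 9 for the interaction. The probe sets of RPL38, and those of RPS10, had mixed signs in every comparison but that of the sides. By kind of probe set, the class median was -0.17 in the 29 that can match several sequences, -0.10 in 32 shared by transcripts of a gene or family, and -0.19 in the 16 others.

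Another 45 tested probe sets named a ribosomal protein beside another symbol and were not members. They had medians of -0.03 for deprivation, -0.19 for class, -0.11 for side, 0.22 for eye of input and -0.22 for the interaction, and none passed. FAU, a small subunit protein made as a fusion with a ubiquitin-like domain, had -0.10 ± 0.16 for deprivation and a class difference of -0.11. RPL36AL, a paralog of RPL36A outside the rule, measured 4390 to 9500 ipsilaterally and 7572 to 12741 contralaterally. Of the paralogs below the filter, RPL3L measured 52.1 to 672.5, RPL10L 25 to 209.3 and RPL39L 19.6 to 86. RPL3L is the form of striated muscle and RPL10L of the testis.

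Other genes of translation did not all follow the members. EEF2, the translocation factor of elongation, was lower in magnocellular layers with one probe set (-1.69 ± 0.33, adjusted p = 0.0229) and had -0.66 ± 0.23 (adjusted p = 0.210) with the other. It was the one gene of the translation lists to pass in any comparison. The 13 probe sets of elongation factors had a class median of -0.06, 65 of initiation factors 0.03, and 40 of other messenger RNAs with a 5′ terminal oligopyrimidine tract 0.10 (15 of 40 lower). Mitochondrial ribosomal proteins, which build the separate ribosome of mitochondria, had a class median of 0.16 with 35 of 48 above 0, and a deprivation median of -0.18 with 36 of 48 below 0. Cytosolic members had -0.16 and -0.01 in the same comparisons. Ribosome biogenesis genes had medians of -0.12 for class and 0.01 for deprivation (26 probe sets), and kinases and repressors of translation -0.14 and -0.06 (18 probe sets). None of these lists had a member past the threshold for deprivation.

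The genes whose pattern over the 12 arrays was most like the members' median, of 7233 other genes with 1 probe set each, were DDRGK1 (Pearson r = 0.88), VGLL4 (0.88), ZBTB40 (0.87), C3 (0.87) and MGLL (0.87). These correlations share arrays and scaling, and the ACTB ratio moves with the same median.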

How the data were processed

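Total RNA of 12 macaque geniculate layer samples was hybridised to a human Affymetrix expression array. The deposited table holds 1 intensity per probe set, linear and already scaled between arrays (trimmed means 1500.45 to 1500.60). The authors' software is not given in the sources used here. Of 22283 probe sets, 68 were controls. A floor was set at the 20th percentile of the whole table (110.8) before taking log2, and probe sets at or above the median mean were tested, which left 11105. limma 3.58.1 under R 4.3.3 (lmFit, eBayes with trend, two-sided, Benjamini-Hochberg over all 11105) fitted deprivation, cell class and side (8 residual degrees of freedom). Each interaction was added in turn (7). Values are log2 differences ± standard error. The script was tested on simulated data. In each comparison members of the 5 smallest p-values per direction were named, besides fixed members. Members and lists were chosen with earlier results of these data known. Alternatives covered scaling, floor, filter, trend, terms, covariates, probe sets per gene, subsets and single arrays left out. Promoter sequences were not analysed here. The number of arrays limits the precision.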

Additional observations from a re-analysis of the deposited data

Results flagged for a closer look

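In 92 groups of values of the named members, 5 had a sample whose gap to its nearest neighbour was above Dixon's 95% limit, and chance alone gives about 1 in 20 groups. RPL36 was lowest in deprived ipsilateral layer 2, at 4331, with the other deprived samples at 6265 to 7691. The brighter RPS9 probe set was also lowest in that sample among magnocellular layers, at 6172. The dimmest RPL38 probe set had 2 such samples: deprived contralateral layer 6 was highest among parvocellular samples at 6387, and non-deprived contralateral layer 2 was highest among non-deprived samples at 2942. RPS27L was lowest among deprived samples in contralateral layer 4, at 1650.5.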

How the results depend on the processing

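No member passed the threshold in any of the 5 comparisons, and this held under every alternative run except with single arrays left out. The count was 0 to 1 for cell class, 1 without deprived layer 4 (RPS27, -1.06), and 0 to 1 for side, 1 without non-deprived layer 6 (RPL7, -0.60), and 0 throughout for the other 3. In these 2 settings 74 and 851 of all 11105 probe sets passed. With single arrays left out the member median ranged from -0.04 to 0.04 for deprivation, -0.22 to -0.11 for class, -0.16 to -0.04 for side, 0.16 to 0.36 for eye of input and -0.27 to -0.09 for the interaction with class. The class median was 0.0873 with the ACTB ratio as a covariate. The side median was -0.42 after median centring, 0.0447 with the ACTB ratio and -0.27 in non-deprived samples alone, and the eye median was -0.0211 after median centring. Median centring moved the median of all probe sets from 0.07 to -0.25 for side, from 0.05 to -0.20 for eye and from 0.03 to -0.11 for deprivation. Relative to all probe sets the member medians were -0.17, 0.18 and -0.04. These cannot change under this centring, which shifts all probe sets of an array alike. Settings of floor, filter and trend could not move the named values, so a count of sign changes is no measure of stability. Of 1344 alternatives of 50 named values 9 changed sign. These were RPS10 (-0.00340 for deprivation and -0.0292 for class as a mean of its probe sets), RPL29 (0.12 for deprivation, ipsilateral arrays), RPS23 (0.00219, contralateral arrays), RPL24 (-0.15 for class and -0.12 for the interaction, ACTB ratio), RPL12 (-0.11 for side after median centring and -0.0323 as a mean of its probe sets) and RPL3 (0.12 for eye, leaving out the 2 arrays with the highest GAPDH ratio). The causes were not tested. With the layer number as a replicate block the deprivation median was -0.01. It cannot differ there, since each layer has 1 deprived and 1 non-deprived array. The count of members was 0, with no member's call changed, while 3 of all probe sets passed, against 7 in the main fit. Samples of the same number are the same layer on opposite sides. Their deviations from the group means correlated from -0.25 to -0.00 over all probe sets, and the numbers were not taken to pair the samples. Over members the correlations ran from -0.26 to 0.25, above 0 in layers 1, 2, 3, 4 and 6 and below 0 in layer 5. Members may thus share a level within a layer, while the main fit counts both samples of a layer as separate, also for cell class. Arrays of 1 side alone and RPL36AL with RPS4Y1 as members were alternatives added after seeing the data.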

Other observations

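The ribosomal RNA controls, 1 probe set for 28S and 1 for 18S, read the RNA partner of these proteins as far as it entered the labelling. Both varied more over the arrays than the median member, which ranged over 1.02 (log2). The widest member ranged over 2.18. The 28S control measured 8521 in deprived layer 2 and 47552 in non-deprived layer 1, and 13192 to 45440 elsewhere. The 18S control measured 4481 in deprived layer 4 to 21235 in deprived layer 3. By class the 28S control was 21183 ± 17816 in magnocellular (SD, n = 4) and 28548 ± 9036 in parvocellular samples (SD, n = 8), a difference within the spread between samples. How much ribosomal RNA the labelling copies is not known here, so these values are not a measure of ribosome content.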
